A study of Mus musculus with 4 samples.

Results

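The enzymes described here commit glucose to glycolysis: the hexokinases Hk1, Hk2 and Hk3, the phosphofructokinase subunits Pfkl, Pfkm and Pfkp, and the bifunctional regulators Pfkfb1, Pfkfb2, Pfkfb3 and Pfkfb4. They were read on Affymetrix arrays from kidneys that C57BL/6 mouse embryos had formed by embryonic day 15. Dams, grouped at 8 weeks of age, ate an iron-deficient diet with about 2 to 6 ppm iron, or a control diet with 220 ppm iron, from 3 weeks before gestation and through pregnancy. For each diet 16 kidneys were combined into a pool and 2 such pools were hybridised, 1 array each, so that 4 arrays were compared. Both parents were C57BL/6, and no mutant allele or transgene is named in the labels. They give the sex as female throughout, although Y-linked signal was read, as described below. Members were taken by gene symbol: a probe set, the group of oligonucleotides that reads 1 transcript region, was kept where the platform annotation gave it exactly 1 symbol of the list. Of 10 genes, 9 had such a probe set, together 19 of the 45037 probe sets that are not array controls, and signals of Pfkfb1 were not analysed here, so that it enters only the count of promoter motifs. After the dimmest 40% of probe sets were left out, 12 of the 19 were tested, from 8 genes. The remaining 7, which include both of Hk3, are given by their signals.

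Hexokinases phosphorylate glucose as it enters the cell, which traps it there. Phosphofructokinase then carries out the committing step of glycolysis as a tetramer of the liver (Pfkl), muscle (Pfkm) and platelet (Pfkp) subunits, whose proportions differ between tissues. PFKFB enzymes make and break a fructose bisphosphate that does not itself pass down the pathway but is the strongest known activator of phosphofructokinase. Several of these genes, among them Hk2, Pfkfb3, Pfkfb4 and Pfkl, are known targets of the hypoxia-inducible factors (HIF), and the nephron's proximal tubule, once mature, makes glucose rather than burning it.

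The signals are linear intensities that share a trimmed mean of 250 on every array as deposited. Iron-deficient pool 1 stood apart: across probe sets its log2 signals correlated with those of the other arrays at 0.883 to 0.913, where the control pools correlated at 0.978. Its 18S ribosomal RNA control signal was 2144.5, against 243 in iron-deficient pool 2 and 291.9 and 289.4 in the control pools. The geometric mean of 18 hybridisation spike probe sets was 2840 and 1945 in the iron-deficient pools and 1368 and 1772 in the control pools. Centring the arrays on these spikes shifted every log2 difference down by the same amount and put the median of all probe sets at -0.70, so some differences are also given relative to the median probe set, which that centring does not alter. With the deposited scaling the median was -0.10. The pools also differed in sex-linked transcripts, since Y-linked Eif2s3y read 253.6 and 20.8 in the iron-deficient pools and 594.5 and 600 in the control pools. These signals go against the label of female. Xist, made from the inactive X chromosome, read 3427.3 and 1543.3 in the iron-deficient pools and 926.6 and 167.8 in the control pools. Sex-linked signals thus differed along with diet, so the mix of sexes cannot be told apart from it, and its part in the members' values was not tested. Within a diet the 2 transcripts did not move in opposite directions. Iron-deficient pool 1 read higher than pool 2 in both, and the control pools were alike in Eif2s3y but not in Xist. These signals therefore do not give the mix of sexes in each pool. Markers of the developing kidney were in place, with all 9 measured genes of that list above background on every array. Of these 9, 3 were higher in both iron-deficient pools (Six2, Wt1 and Foxd1), 3 were lower (Nphs1, Umod and Slc12a1) and 3 overlapped. Over all tested probe sets 11.8% were higher in both and 25.0% lower in both, so 3 of 9 lower is not set apart from that share. Their sizes were unequal. Log2 differences, iron-deficient minus control, were -2.37 for Umod, -1.72 for Slc12a1 and -0.98 for Nphs1, against 0.44 for Six2, 0.32 for Wt1 and 0.53 for Foxd1. At limma's unadjusted p of 0.05, 2 of the list were lower (Umod and Slc12a1) and 0 higher, against 2.81% and 1.14% of all tested probe sets. Whether pools of the same diet share litters is not stated, so the p-values speak for the variation among these 4 pools alone, part or all of which may be technical.

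The comparison of diets asked how transcripts of the entry steps of glycolysis differ between kidneys of embryos from iron-deficient and control dams. Hk2 and Pfkfb3 stood about 3-fold higher in the iron-deficient pools, at 3.02-fold and 3.01-fold, and Pfkl and Pfkp about 2-fold higher, at 2.02-fold and 2.18-fold on their brightest probe sets. The tested probe sets of Hk1, Pfkm, Pfkfb2 and Pfkfb4 had overlapping pools. For 7 of the 12 tested member probe sets both iron-deficient signals exceeded both control signals, against 11.8% of all 27022 tested. None of those 12 lay below in both, against 25.0% of all tested. Among the 7 dim probe sets that were not tested, 1 of Hk3 and 1 of Pfkfb2 lay below in both and 1 of Pfkfb2 above in both. No member passed limma's test at an adjusted p of 0.05, and neither did any of the 27022 probe sets (0%). At an unadjusted p of 0.05, 6 of the 12 were higher and 0 lower, where the shares over all tested probe sets were 1.14% (309 probe sets) and 2.81% (760). The dimmer tested Pfkp probe set, counted in both the 7 and the 6, had control signals of 16.2 and 6.9. Both lay under the mean signal of 17.3 that the filter required. It was tested only through its iron-deficient signals of 40.6 and 22.3, so it adds no support to either count. The 6 belong to Hk2, Pfkfb3, Pfkl (2 probe sets) and Pfkp (2 probe sets). Their number was 1 without control pool 1, 2 without control pool 2, 7 when iron-deficient pool 1 was left out and 6 (5 higher and 1 lower) when pool 2 of that diet was, in fits that take the lone pool of a diet to vary like the other diet's pools. After centring on the spikes it was 0. All 12 had the same SE in that fit (0.68), and all 12 also shared an SE in the fits without a control pool. Counts from those fits thus do not compare directly with the 6. The median log2 difference of the 12 was 1.01, and it was 1.11 relative to the median probe set under both scalings. Adjusted p-values of the 12 ranged from 0.760 to 0.954.

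**Figure D1:**
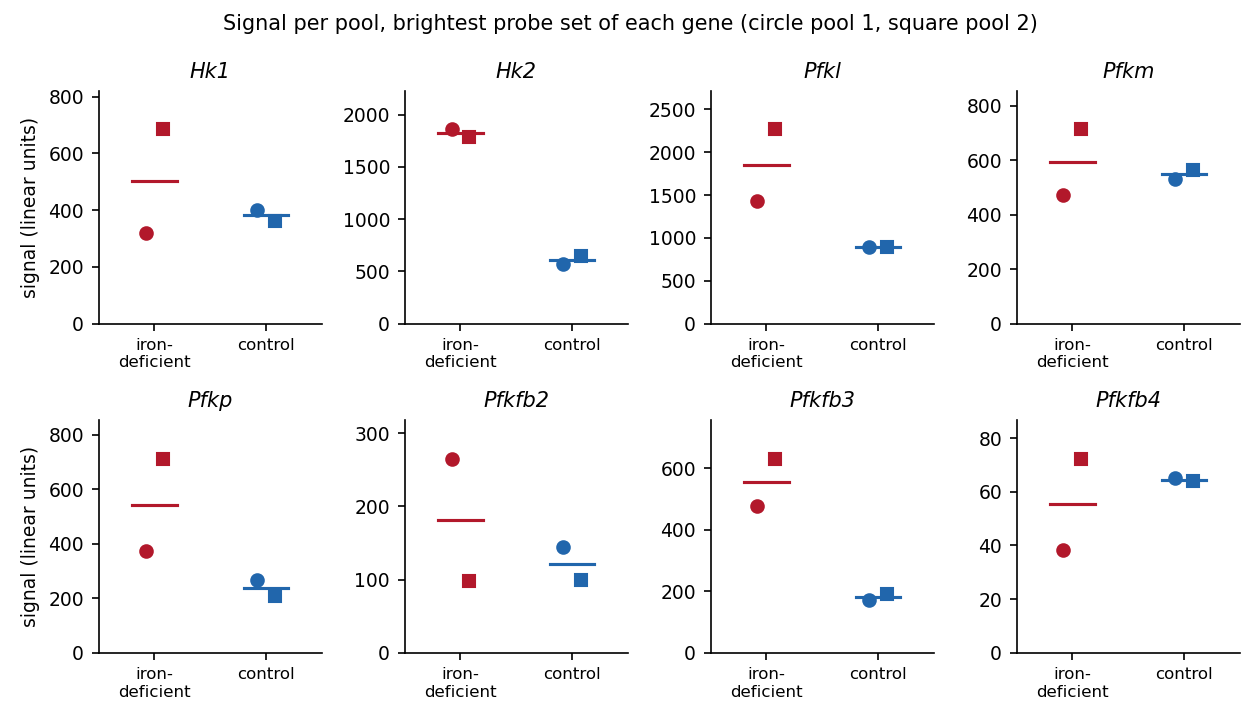
Linear array signal (y axis, from 0) of the brightest tested probe set of each of 8 genes, with the iron-deficient pools in red on the left and the control pools in blue on the right of each panel. Circles are pool 1, squares pool 2 and lines the mean of 2 pools. Hk2, Pfkl, Pfkp and Pfkfb3 have both red points above both blue ones, and the other 4 genes do not.

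Among the hexokinases, Hk2 was the one whose pools separated upward by diet. Hk2, the inducible isoform that can dock on mitochondria, had signals of 1860.8 and 1788.2 in the iron-deficient pools, against 565.7 and 642.9 in the control pools. The pools of each diet lay close together and far from the other diet, with a log2 difference of 1.60 ± 0.31 (SE, limma, 2 pools a diet; unadjusted p = 0.0029, adjusted p = 0.760). It was 1.57 when iron-deficient pool 1 was left out, 1.63 when the other was, and 1.70 relative to the median probe set. After centring on the spikes it was 1.00. Hk1, the isoform found in most tissues, had signals of 318.8 and 684.3 in the iron-deficient pools and 398.7 and 363.0 in the control pools on its brighter probe set. The iron-deficient pools thus enclosed the control pools. The log2 difference was 0.30 ± 0.46 (SE, 95% interval -0.84 to 1.44), and it was -0.30 after centring on the spikes. The dimmer Hk1 probe set read 78.7 and 87.0 in the iron-deficient pools and 83.1 and 64.2 in the control pools, a log2 difference of 0.18 ± 0.33 (SE), or -0.41 after that centring. A probe set annotated to Hk1 and several other symbols was left out.

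Because Hk1 and Hk2 were read on the same arrays, their log2 signals can be subtracted within each array, which removes any scaling of the whole array. The distance of Hk2 above Hk1 was 2.55 and 1.39 in the iron-deficient pools and 0.50 and 0.82 in the control pools. The distance itself compares different probe sets and has no meaning, but its change does. It was larger by 1.30 in the iron-deficient pools, and the pools did not overlap. It was 0.72 without iron-deficient pool 1, in which Hk1 was lowest, and 1.88 without the other. The two-sided exact permutation p was 0.333, which is the smallest that 2 pools against 2 can give (adjusted p = 0.444 over 4 such contrasts).

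Hk3, a hexokinase known from granulocytes and macrophages, was dim on every array and was not tested. Its probe sets read 16.6 and 17.1, and 14.1 and 15.1, in the iron-deficient pools, against 13.4 and 19.0, and 17.1 and 18.6, in the control pools. Of these signals 1, the 14.1, did not exceed its array's background of 14.4. Background was 13.3 in iron-deficient pool 2 but 8.5 and 8.2 in the control pools, so Hk3 stood nearer to it in the iron-deficient pools. Myeloid markers were mixed in the same pools. The summed signal of 10 markers was 3179 and 2556 in the iron-deficient pools and 1673 and 1962 in the control pools. Of 9 tested, 5 were higher in both pools (Mpo, S100a8, S100a9, Ngp and Camp), against 11.8% of all tested probe sets. Lower in both were 2 (Ptprc and Lyz2), against 25.0%, and Csf1r and Cd68 overlapped. Mpo, Ngp and Camp had control signals under the filter's 17.3, at 13.1 and 11.6, 3.8 and 14.2, and 14.8 and 4.5. They were tested only through their iron-deficient signals, so they add no support to the count of 5. Of the Hk3 probe sets, 1 overlapped and the other was lower in both pools.

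The first bases upstream of the transcription start are shown for Hk2 and for Hk1, the hexokinases that did and did not separate by diet, because HIF is known to bind the short core ACGTG or GCGTG. Sequences are RefSeq's for the GRCm38.p6 build, 250 bases that end just before the annotated start, written 5′ to 3′ on the gene's strand, with every ACGTG or GCGTG on either strand in capitals. Of the 2 annotated Hk1 starts, the one with a match is printed.
Hk2, chr6:82774455-82774704, minus strand: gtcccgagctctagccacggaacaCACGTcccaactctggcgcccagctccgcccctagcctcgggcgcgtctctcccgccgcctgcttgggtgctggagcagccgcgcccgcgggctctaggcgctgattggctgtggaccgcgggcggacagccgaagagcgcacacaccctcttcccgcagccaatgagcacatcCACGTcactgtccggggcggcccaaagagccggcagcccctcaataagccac
Hk1, chr10:62340422-62340671, minus strand: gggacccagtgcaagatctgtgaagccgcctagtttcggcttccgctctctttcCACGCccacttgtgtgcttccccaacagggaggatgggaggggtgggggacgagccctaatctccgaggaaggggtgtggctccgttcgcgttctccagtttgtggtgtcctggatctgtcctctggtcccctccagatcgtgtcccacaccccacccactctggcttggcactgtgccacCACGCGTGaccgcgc
Hk2 held 2 matches, beginning 226 and 52 bases upstream of its start and both read as CACGT on this strand. Hk1 held 3, beginning 196, 15 and 12 bases upstream, the last pair of which overlap, and all 3 are GCGTG. All 10 genes of the list had at least 1 annotated start with a match, as did 41.5% of 27025 genes in the table. Counted by start, 15 of 20 members' windows had a match, against 38.6% of 32851. The G and C content was 69.6% for Hk2 and 62.8% for the printed Hk1 window, above the median of 52.4% over all windows, and both cores contain CG. A match describes the letters only, and genes with overlapping pools had them too.

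Of the phosphofructokinase subunits, Pfkl and Pfkp separated the diets and Pfkm did not. Pfkl, the liver subunit, was read by 3 probe sets that all separated the diets. The brightest gave 1427.0 and 2268.1 in the iron-deficient pools and 890.8 and 893.2 in the control pools (log2 difference 1.01 ± 0.37, SE, limma unadjusted p = 0.037, adjusted p = 0.852). The control pools were nearly equal, while iron-deficient pool 2 was well above pool 1. The next gave 948.4 and 2209.0 in the iron-deficient pools and 709.8 and 738.5 in the control pools (1.00 ± 0.48, SE). The dimmest gave 45.6 and 76.6 in the iron-deficient pools and 24.9 and 27.5 in the control pools (1.18 ± 0.38, SE). All 3 placed iron-deficient pool 2 highest and pool 1 between it and the control pools. Without iron-deficient pool 2 the differences were 0.68, 0.39 and 0.80, and with that pool but not pool 1 they were 1.35, 1.61 and 1.55.

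Pfkp, the platelet subunit, which is also common in embryonic and proliferating tissue, had 374.7 and 712.1 in the iron-deficient pools and 268.1 and 208.8 in the control pools on its brightest probe set (1.13 ± 0.43, SE, limma unadjusted p = 0.043, adjusted p = 0.852). The diets did not overlap, and iron-deficient pool 2 was again the highest. A dim probe set read 40.6 and 22.3 in the iron-deficient pools and 16.2 and 6.9 in the control pools (1.51 ± 0.55, SE), with pool 1 the highest here. Because the 6.9 lay under its array's background of 8.2, the difference with that signal set to background was 1.38. A further Pfkp probe set was too dim to be tested, at 7.2 and 35.0 in the iron-deficient pools and 18.3 and 13.3 in the control pools, and its pools overlapped.

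Pfkm, the muscle subunit, had 471.6 and 713.7 in the iron-deficient pools and 530.8 and 565.0 in the control pools. The control pools lay between the iron-deficient ones, and the log2 difference was 0.08 ± 0.36 (SE, 95% interval -0.81 to 0.98), or -0.51 after centring on the spikes. Within arrays, the log2 distance of Pfkl above Pfkm was 1.60 and 1.67 in the iron-deficient pools and 0.75 and 0.66 in the control pools, a change of 0.93. That change is a 1.90-fold shift of the Pfkl signal relative to the Pfkm signal, and the pools of each diet differed little in it. For Pfkp minus Pfkm the values were -0.33 and -0.0032 in the iron-deficient pools and -0.99 and -1.44 in the control pools, a change of 1.04. In both contrasts the diets did not overlap, and both reached the smallest exact permutation p of 0.333. Leaving out any 1 pool kept these changes between 0.89 and 0.97 for Pfkl and between 0.82 and 1.27 for Pfkp.

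The upstream windows of Pfkl and Pfkp, the subunits that separated by diet, carry the same marking as the hexokinase sequences.
Pfkl, chr10:78009808-78010057, minus strand: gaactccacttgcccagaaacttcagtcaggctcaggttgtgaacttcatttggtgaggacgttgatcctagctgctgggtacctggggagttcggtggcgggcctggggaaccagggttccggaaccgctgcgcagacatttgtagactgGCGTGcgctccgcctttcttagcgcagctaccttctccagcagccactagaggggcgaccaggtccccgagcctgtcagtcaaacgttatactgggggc
Pfkp, chr13:6648772-6649021, minus strand: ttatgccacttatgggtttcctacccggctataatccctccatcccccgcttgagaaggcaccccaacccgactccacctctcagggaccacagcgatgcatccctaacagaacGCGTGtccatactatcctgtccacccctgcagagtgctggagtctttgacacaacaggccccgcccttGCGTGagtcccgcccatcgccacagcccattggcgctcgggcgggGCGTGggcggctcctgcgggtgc
Pfkl held 1 match, 99 bases upstream of its start, and Pfkp 3, at 136, 68 and 23 bases. All 4 were GCGTG, which 28.2% of all windows hold, and neither gene had ACGTG, which 16.6% hold. Pfkm, whose pools overlapped, had a match at 3 of its 4 annotated starts.

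**Figure D2:**
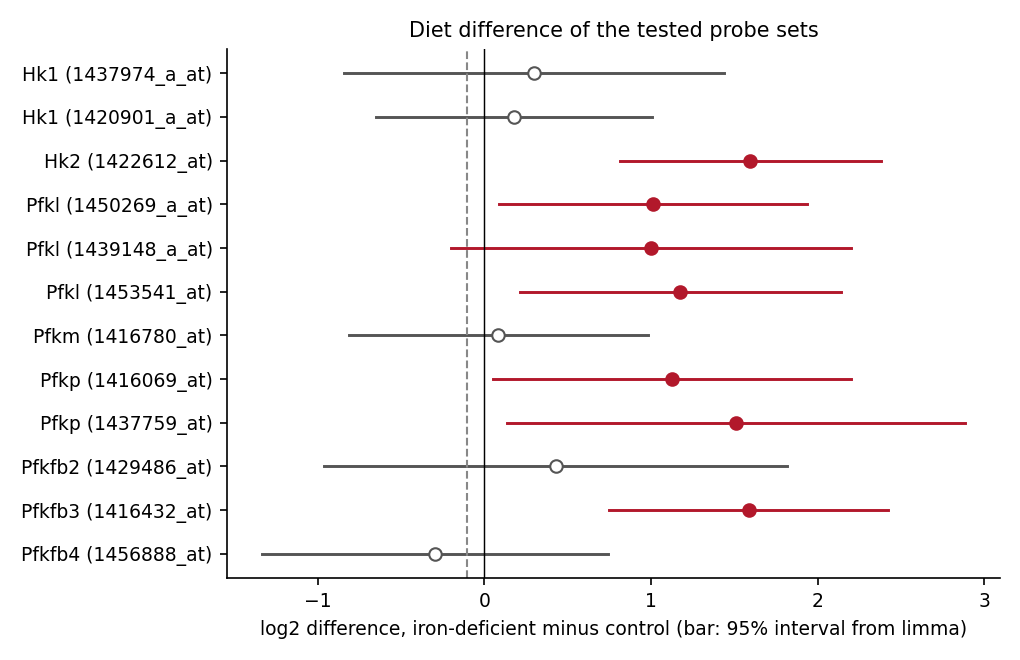
Log2 difference, iron-deficient minus control (x axis), of the 12 tested probe sets, with 95% intervals from limma. Filled red points are probe sets with both iron-deficient pools above both control pools, open grey points those with overlapping pools, and the dashed line is the median of all tested probe sets (-0.10). The intervals of Hk2 and Pfkfb3 lie farthest from 0.

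Among the tested PFKFB probe sets, that of Pfkfb3 was the one whose pools did not overlap. Pfkfb3, whose kinase activity far exceeds its phosphatase activity so that it favours glycolytic flux, had 477.3 and 631.5 in the iron-deficient pools and 173.2 and 192.6 in the control pools. Both iron-deficient signals were well above both control signals, and the log2 difference was 1.59 ± 0.33 (SE, limma unadjusted p = 0.0040, adjusted p = 0.852). It was 1.79 with iron-deficient pool 1 left out, 1.39 with the other left out, 0.99 after centring on the spikes and 1.69 relative to the median probe set. Its other probe set, at 4.7 and 5.7 in the iron-deficient pools and 5.4 and 4.9 in the control pools, was not above background on any array.

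Pfkfb4, which is known as hypoxia-inducible in many cell types, had 38.3 and 72.4 in the iron-deficient pools and 65.0 and 64.2 in the control pools. Its log2 difference was -0.29 ± 0.41 (SE, 95% interval -1.33 to 0.74), and it was 0.16 without iron-deficient pool 1. Pfkfb2, the isoform best known from heart, had 265.5 and 98.2 in the iron-deficient pools and 144 and 100 in the control pools on its only tested probe set. Iron-deficient pool 1 was the highest and pool 2 the lowest of the 4, and the log2 difference was 0.43 ± 0.55 (SE, 95% interval -0.96 to 1.82), or -0.29 without iron-deficient pool 1 and -0.17 after centring on the spikes. The other 3 Pfkfb2 probe sets read between 0.3 and 20.0 in the iron-deficient pools and between 1.4 and 10.4 in the control pools and were not tested, with 1 higher in both pools, 1 lower in both and 1 overlapping. Within arrays, the distance of Pfkfb3 above Pfkfb2 was 0.85 and 2.68 in the iron-deficient pools and 0.27 and 0.95 in the control pools, and these overlapped (change 1.16, two-sided exact permutation p = 0.667). The change was 2.08 without iron-deficient pool 1 and 0.24 without the other, so that a difference between these isoforms was not shown.

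Both annotated upstream windows of Pfkfb3, the PFKFB gene that separated by diet, are given with matches in capitals.
Pfkfb3 first start, chr2:11553930-11554179, minus strand: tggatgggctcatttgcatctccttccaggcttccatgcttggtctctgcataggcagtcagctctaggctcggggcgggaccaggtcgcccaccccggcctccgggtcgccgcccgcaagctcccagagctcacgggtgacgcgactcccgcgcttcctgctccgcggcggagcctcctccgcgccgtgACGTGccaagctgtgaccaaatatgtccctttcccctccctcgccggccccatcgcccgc
Pfkfb3 second start, chr2:11502091-11502340, minus strand: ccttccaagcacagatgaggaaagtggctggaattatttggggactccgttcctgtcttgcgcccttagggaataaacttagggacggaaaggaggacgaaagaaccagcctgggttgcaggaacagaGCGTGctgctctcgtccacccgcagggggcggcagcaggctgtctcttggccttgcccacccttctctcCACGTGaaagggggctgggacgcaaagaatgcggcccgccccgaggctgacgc
The window of the first held 1 match, 60 bases upstream. That of the second held 3, beginning 122, 53 and 52 bases upstream, and the last pair form the palindrome CACGTG, which reads as ACGTG on either strand and was found in 6.02% of all windows. Pfkfb2 and Pfkm, whose tested probe sets had overlapping pools, had such a palindrome too, each in 1 window, and Pfkfb4 had 1 GCGTG.

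The iron-deficient pools differed from each other in a way that varied by gene. Relative to the control mean, Hk2 stood at 1.63 in pool 1 and 1.57 in pool 2 on the log2 scale, and Pfkfb3 at 1.39 and 1.79. The brightest Pfkl probe set stood at 0.68 and 1.35, the brightest Pfkp at 0.66 and 1.59, Hk1 at -0.25 and 0.85, Pfkm at -0.22 and 0.38, and Pfkfb4 at -0.75 and 0.16. Pfkfb2 ran the other way, at 1.15 and -0.29. Pool 2 was above pool 1 for 9 of the 12 member probe sets, and for 56.4% of all tested probe sets. Over all tested probe sets the log2 difference between the iron-deficient pools had an SD of 0.96, against 0.50 between the control pools.

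**Figure D3:**
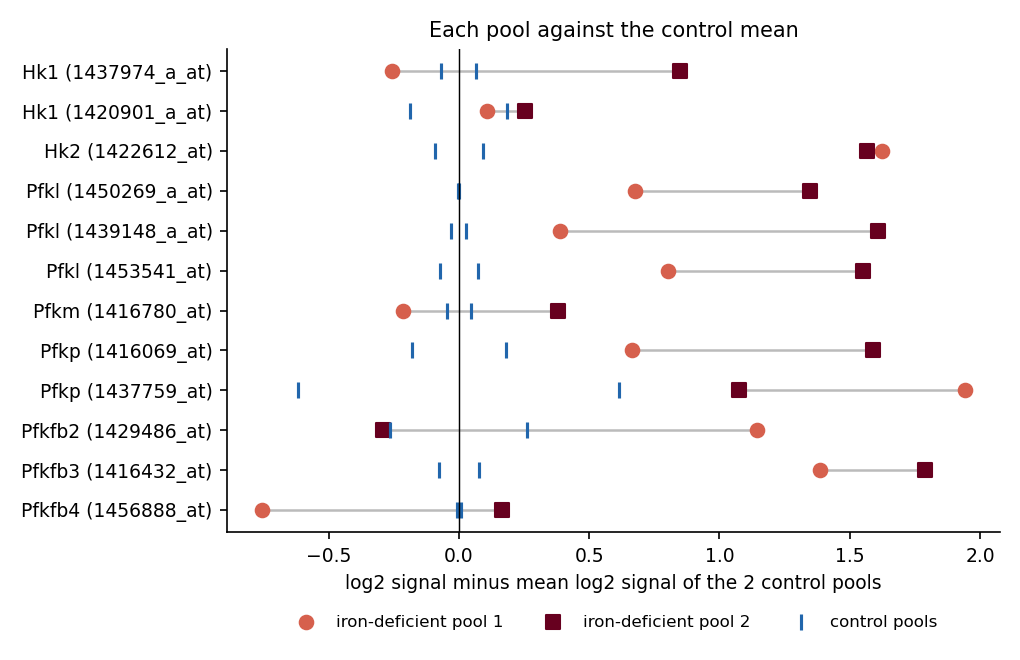
Log2 signal of each pool minus the mean log2 signal of the 2 control pools (x axis) for the 12 tested probe sets. Light circles are iron-deficient pool 1, dark squares iron-deficient pool 2 and blue ticks the control pools. The iron-deficient pools lie close together for Hk2 and spread for the brighter Hk1 probe set, Pfkl, Pfkp, Pfkfb2 and Pfkfb4.

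Markers of other cell types also differed between the pools. The summed signal of 10 skeletal muscle markers was 462.5 and 2823.3 in the iron-deficient pools and 573.2 and 440.3 in the control pools, and that of 7 liver markers was 226.9 and 2597.9 against 1435.2 and 1286.0. Iron-deficient pool 2 was thus highest in both. It was also highest for the brightest probe sets of Hk1, Pfkl, Pfkp, Pfkm, Pfkfb3 and Pfkfb4, while pool 1 was highest for those of Hk2 and Pfkfb2. The part of these markers in any of those values was not tested. Hk2 read 1860.8 in iron-deficient pool 1, where the muscle sum was 462.5, and 1788.2 in iron-deficient pool 2, where it was 2823.3. The summed signal of 7 red cell markers was 1878 and 1806 in the iron-deficient pools and 924.5 and 990.0 in the control pools. Of it, Hba-x alone read 1251.2 and 988.1 against 241.5 and 340.4. Of the 7, 4 were higher in both pools, 1 (Alas2) was lower in both, and Epor and Klf1 overlapped. The sum of 9 proximal tubule markers was 443.0 and 1069.2 against 3841.2 and 3553.1, and all 9 were lower in both pools. Over all tested probe sets 11.8% were higher in both and 25.0% lower in both. The red cell genes Hemgn and Ermap, both higher, had mean control signals of 17.05 and 17.15, under the filter's 17.3. The tubule genes Slc17a1 and Miox read 8.5 and 14.3, and 7.2 and 12.4, in the iron-deficient pools. Each was tested only through the signals of the other diet, so they add no support to these counts. The part of the marker differences in the members' values was not tested either. In pooled tissue, fewer cells of a type and less RNA per cell cannot be told apart. No marker read 0, but of the muscle list 2 and 1 genes in the iron-deficient pools and 1 and 2 in the control pools were not above background, and of the proximal tubule list 4 and 1 in the iron-deficient pools and 0 in the control pools.

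Other genes of glucose handling were taken from lists on the brightest probe set of each gene. Of 13 tested genes of lower glycolysis, 9 were higher in both pools and 2 lower in both, against 11.8% and 25.0% of all tested probe sets. Their median log2 difference was 0.53, against -0.14 over all genes. At limma's unadjusted p of 0.05 there were 2 higher, the aldolase Aldoc (1.58 ± 0.52, SE) and the kinase Pgk1 (0.91 ± 0.33, SE). There was 1 lower, the mutase Pgam2 (-3.02 ± 0.92, SE), and the shares over all tested probe sets were 1.14% and 2.81%. Aldoa, the main aldolase of most tissues, had 7546.1 and 6608 in the iron-deficient pools and 3715.2 and 4833.2 in the control pools (0.74, unadjusted p = 0.074). The median of the 8 tested member genes was 0.72 on the same basis. Transcripts for the reverse of the phosphofructokinase step, those of Fbp1 and Fbp2, were lower. Fbp1, the bisphosphatase of gluconeogenic cells that undoes the phosphofructokinase reaction, had 9.5 and 62.1 in the iron-deficient pools and 786.9 and 867.7 in the control pools, the 9.5 being under background. Its muscle-type relative Fbp2 had 15.9 and 53.1 in the iron-deficient pools and 175.9 and 198.1 in the control pools. Of 7 tested genes of gluconeogenesis and sugar phosphatases, 0 were higher in both pools, and the median was -0.76. At limma's unadjusted p of 0.05, 3 were lower, against 2.81% of all tested probe sets. Lower in both pools were 4, against 25.0% of all tested. Besides Fbp1 and Fbp2 these were Pck1, which makes phosphoenolpyruvate (-2.78), and the pyruvate carboxylase Pcx (-0.76). Fbp1 and Pck1 are also among the 9 proximal tubule markers described above, all of which were lower in both pools. The part of that difference in these genes was not tested.

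Glucose transporters divided. Of 7 tested, 2 were higher in both pools and 4 lower in both, against 11.8% and 25.0% of all tested probe sets. The higher were Slc2a1 (1.34 ± 0.34, SE) and Slc2a3 (2.34 ± 0.51, SE), carriers that bring glucose to hexokinase. Among the lower, Slc5a1, a sodium-coupled glucose carrier of the tubule, differed by -3.09 ± 0.33 (SE), and Slc2a2 by -1.56 ± 0.39 (SE). Slc5a2, lower as well (-0.78), is also on the list of proximal tubule markers. Of 7 other sugar kinases and regulators, 0 were higher in both pools and 3 lower in both, none at an unadjusted p of 0.05, where 25.0% of all tested probe sets were lower in both. In so short a list these counts are not set apart from that share. The 3 were Nagk, the kinase of N-acetylglucosamine (-0.63), Mlxip, a glucose-sensing transcription factor (-0.52), and Tigar, a phosphatase that lowers the PFK activator, with 199.1 and 188.8 in the iron-deficient pools and 287.1 and 319.2 in the control pools (-0.64 ± 0.31, SE). Hkdc1, a hexokinase-like gene, had 30.4 and 45.1 in the iron-deficient pools and 32.9 and 29.8 in the control pools, and these overlapped. Of 17 low-oxygen response genes outside glycolysis, 14 were higher in both pools and 0 lower in both, against 11.8% and 25.0% of all tested probe sets. Their median was 1.17. The 4 with the smallest p were the peptide hormone gene Adm (2.42), Car9, a carbonic anhydrase (1.81), Pdk1 (1.43) and the angiogenic factor Vegfa (1.31). Car9, also counted in the 14, had a mean control signal of 17.05, under the filter's 17.3. It was tested only through its iron-deficient signals of 42.8 and 81, so it adds no support to that count. None of the genes on these lists passed at an adjusted p of 0.05 by limma.

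**Figure D4:**
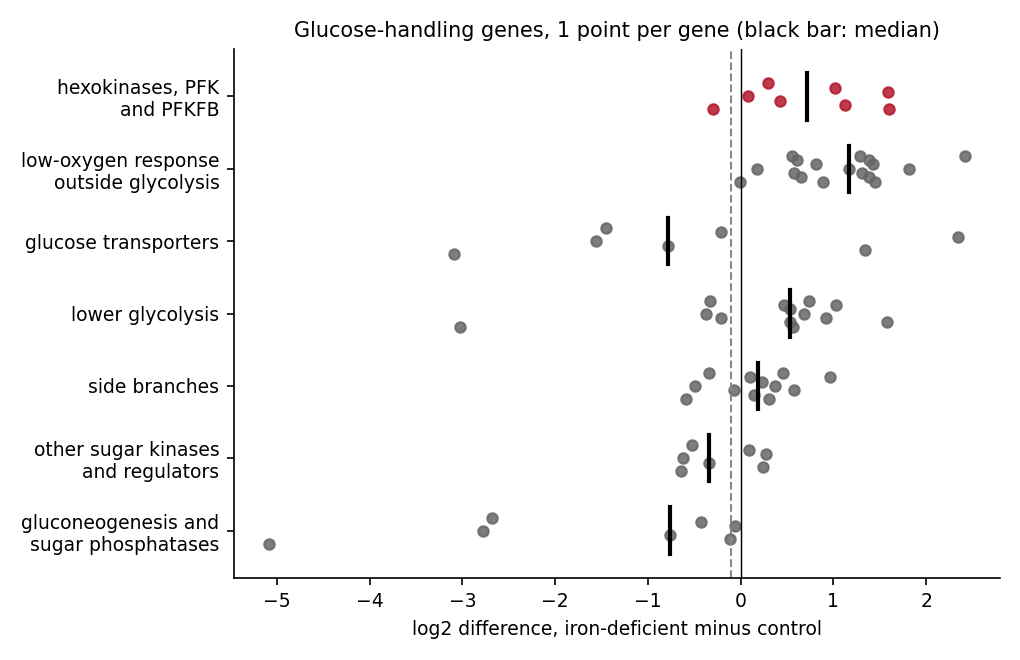
Log2 difference, iron-deficient minus control (x axis), for 1 probe set per gene, the brightest, in the hexokinase, phosphofructokinase and PFKFB genes (red, top) and 6 other lists of glucose handling or low-oxygen response (grey). Black bars are medians and the dashed line is the median of all tested probe sets. The red points reach from -0.29 to 1.60, and gluconeogenesis extends to -5.09 at Fbp1.

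The genes whose pattern over the 4 arrays was nearest to that of Hk2 were sought among 12989 other genes, by the Euclidean distance of log2 signals centred on each probe set's own mean. They were Tmem45a (distance 0.20), Sparcl1 (0.21), Usp18 (0.26), the clock factor Dbp (0.29) and Pdk1 (0.32), the kinase that holds pyruvate back from the citric acid cycle. Nearest to Pfkfb3 were Dbp (0.20), Tmem45a (0.21), the transcriptional repressor Bhlhe40 (0.24), Aire (0.25) and the collagen prolyl hydroxylase P4ha1 (0.26). Dbp and Tmem45a appeared beside both. With 4 arrays, this likeness describes these pools only.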

How the data were processed

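Biotin-labelled RNA of 4 kidney pools was hybridised, per the labels' protocols. What the authors deposited is the intensity of each probe set on a linear scale. The submitters' processing notes name RMA, but the values are neither logarithmic nor matched in distribution, and for the step that produced them the version and settings are not given here. Signals were turned to log2 after zeros were set to 0.1. Control probe sets (64) and the lowest 40% of the other 45037 by mean log2 (a signal of 17.3) were left out. Differences were fitted with limma 3.58.1 in R 4.3.3 over 27022 probe sets, two-sided and on diet alone, and p-values were adjusted by Benjamini-Hochberg over all of them. The fit had 2 residual and 3.49 prior degrees of freedom, and it was tested on simulated data. The number of arrays limits the precision. Background is the highest of 27 unspiked control probe sets of an array (14.4 and 13.3 in the iron-deficient pools, 8.5 and 8.2 in the control pools).

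Platform symbols of all 19 member probe sets matched the GRCm38.p6 gene table. Named genes are all members, up to 4 genes per list by smallest p, and the 5 nearest patterns to Hk2 and to Pfkfb3. Members and lists were chosen with earlier results of these data known. Of the marker lists, sums are given, and single genes are named where a list was mixed or shared a gene with another list.

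Alternatives were other filters, scalings, offsets, eBayes settings, array weights, a replicate block, each pool left out, and 1 probe set per gene. Centring on the spikes and setting dim signals to background were added after seeing the data. Promoter windows came from RefSeq and were searched on both strands.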

Additional observations from a re-analysis of the deposited data

How the results depend on the processing

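Hk2, Pfkfb3 and the Pfkl and Pfkp probe sets kept a positive difference under every alternative that could be fitted to them, with ranges of 1.00 to 1.79 for Hk2, 0.99 to 1.79 for Pfkfb3, 0.42 to 1.35 for the brightest Pfkl and 0.53 to 1.59 for the brightest Pfkp. The count of all probe sets past an adjusted p of 0.05, 0 as reported, became 13 with 1 probe set per gene, 155 after spike centring, and 479 with a replicate block, and 0 to 75 with a pool left out (75 without control pool 1, 31 without control pool 2). Member probe sets at an unadjusted p of 0.05, 6 as reported, became 3 without a filter (2 higher and 1 lower, where the 6 were all higher), 0 after spike centring, and 1 to 7 with a pool left out. Their median of 1.01 became 0.72 with 1 probe set per gene, 0.30 without a filter (which adds 7 dim probe sets), 0.41 after spike centring, and 0.67 to 1.21 with a pool left out. The sign turned after spike centring for Hk1 (-0.30 and -0.41), Pfkm (-0.51) and Pfkfb2 (-0.17). With a pool left out, the ranges that cross 0 were -0.25 to 0.85 and -0.0062 to 0.37 for Hk1, -0.22 to 0.38 for Pfkm, -0.29 to 1.15 for Pfkfb2 and -0.75 to 0.16 for Pfkfb4. The cause was not tested. The samples share only a pool number, not a stated pairing. With that number as a replicate block, 479 probe sets passed, Hk2 (adjusted p = 0.042) and Pfkfb3 (0.044) among them. All 12 member probe sets shared an SE of 0.47 in that fit. Counts from fits with a shared SE do not compare directly with the 0 reported. The main fit gave Hk2 and Pfkfb3 smaller SEs (0.31 and 0.33) but larger unadjusted p (0.0029 and 0.0040 by limma, against 0.00068 and 0.00073). Their passing was thus not a gain in precision from the pool number. Over the other alternatives with all pools kept, the smallest adjusted p was 0.19 for Hk2 and 0.22 for Pfkfb3. The deviations of same-numbered pools correlated at 0.36 across probe sets. The Pfkl minus Pfkm contrast was 0.79 after quantile normalization. Dim signals limit what Hk3, most Pfkfb2 probe sets, 1 probe set of Pfkfb3 and the dimmer Pfkp probe sets can show.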

Other observations

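Branches that leave glycolysis just below hexokinase were mixed. Of 12 tested genes of the pentose phosphate, glycogen and hexosamine branches, 4 were higher in both pools and 2 lower in both, against 11.8% and 25.0% of all tested probe sets, and their median log2 difference was 0.19. Pgm1, the mutase that links glucose phosphate to glycogen, had 1606.4 and 1637.9 in the iron-deficient pools and 818.7 and 839.5 in the control pools (0.97 ± 0.31, SE), and was the only one at an unadjusted p of 0.05 by limma. Ugp2, which makes the glycogen precursor UDP-glucose, had 1826.0 and 1310.5 in the iron-deficient pools and 1091.5 and 1160.7 in the control pools. The pentose phosphate enzymes Taldo1 and Rpe were lower in both iron-deficient pools, at -0.59 ± 0.41 and -0.49 ± 0.32 (SE). None of these genes passed over all 27022 probe sets.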
